A study of Mus musculus with 6 samples.

Results

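The Zfp genes of the mouse are numbered zinc finger genes, and their promoter windows were taken as every gene window whose symbol is Zfp followed by a number alone. There were 367 such windows among 27095 in all. A window was called clustered where another one started within 200 kb on the same chromosome, which held for 228, and single otherwise, which held for 139. The choice used names and positions only. Close to the distance limit lay Zfp68, with its nearest neighbour at 179 kb, and Zfp938, at 194 kb, both clustered, and Zfp516 and Zfp236, at 217 kb, both single; none of the 4 passed the test below.

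Most proteins with this name carry tandem C2H2 fingers, in which a zinc ion holds a short loop that reads a few bases of DNA, and an array of such fingers reads a longer site. In a large subset a KRAB domain at the other end binds TRIM28 (KAP1), which brings the histone methyltransferase SETDB1 and heterochromatin proteins to the bound site. These KRAB zinc finger proteins are known for silencing transposable elements and for protecting imprinted genes, and their genes multiply by tandem duplication, so that near copies lie side by side. The symbol alone does not give the family: Zfp36 encodes tristetraprolin, a CCCH protein that binds RNA, and Zfp185 a LIM domain protein.

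Accessibility was measured by ATAC-seq, in which the transposase Tn5 cuts and tags open chromatin, in medullary thymic epithelial cells (mTECs) with high MHC class II, the thymic cells that display self-antigens to developing T cells. There were 3 libraries of wildtype and 3 of Kat7-knockout mice, all on the C57BL/6 background, each from a biological replicate of its own. KAT7 is a MYST-family histone acetyltransferase. The sources used here do not say what drove the deletion, which part of Kat7 was deleted, how old the mice were or whether animals were pooled. Levels below are CPM (counts scaled to a common library size), with TMM factors, as mean ± SD over 3 libraries. All Zfp windows have the same length, so that their levels can be compared, except that 66 overlapped another gene's window and report only the unshared stretch.

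Library totals ran from 15482439 to 19832326 counts. The Kat7 window held 291, 238 and 272 CPM in the wildtype libraries and 11.9, 13.2 and 38.3 CPM in the knockout libraries (log2 change -3.66, SE 0.574, adjusted p = 0.0143). Aire, the regulator of self-antigen genes that marks mature mTECs, stood at 73.9 ± 3.03 CPM in wildtype against 63.3 ± 5.84 CPM in knockout (adjusted p = 0.149). Windows that mark other cell types were also open: the 6 B cell markers summed to 121 to 123 CPM in wildtype against 58.3 to 59.7 CPM in knockout (4 of 6 lower), the 8 mesenchymal and endothelial markers to 139 to 146 and 107 to 110 CPM (4 lower, 1 higher), the 8 myeloid and dendritic markers to 100 to 107 and 88.6 to 102 CPM (3 lower), the 11 thymocyte markers to 39.3 to 42.9 and 44.9 to 51.6 CPM (2 of 9 tested higher), and the 6 cortical epithelial markers to 255 to 309 and 442 to 530 CPM (2 higher, 1 lower). Ebf1, whose values are given below, made up most of the B cell sum in wildtype and most of its fall. The myeloid and dendritic sums overlapped between the genotypes. Foxn1 carried the cortical sum, with 78.2 to 121 CPM in wildtype and 270 to 331 CPM in knockout, and the other 5 cortical markers summed to 177 to 189 and 172 to 199 CPM, which overlap. The 12 mature mTEC markers summed to 2118 to 2198 CPM in wildtype and 1924 to 2364 CPM in knockout. Of these, 2 were lower (16.7%), Ccl17 and Ccl22. For comparison with the counts in these lists, 20.2% of all windows tested were lower and 6.36% higher. None of these marker lists summed to 0 in a library, and their part in the results below was not tested. In such bulk libraries, fewer open cells and less opening per cell cannot be told apart.

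Promoter sequences were available for 304 of the 367 genes, and 293 were used, those on the same strand and wholly inside the gene's window. The bases shown end at the gene start and are read 5′ to 3′ on the gene's strand, from RefSeq on GRCm38.p6, the build named mm10 in the deposited files. The first 3 come from a block on chromosome 2 in which nearly all Zfp windows were lower in the knockout; capitals mark the 41 bases that all 6 available Zfp promoters of that block share. Zfp966 lies at chr2:175931101-175931350 on the minus strand, and the promoter of Zfp967, at chr2:176520754-176521003 on the plus strand, has the same letters. Zfp970 lies at chr2:177464492-177464741 (plus strand) and Zfp931 at chr2:178078426-178078675 (minus strand).
Zfp966: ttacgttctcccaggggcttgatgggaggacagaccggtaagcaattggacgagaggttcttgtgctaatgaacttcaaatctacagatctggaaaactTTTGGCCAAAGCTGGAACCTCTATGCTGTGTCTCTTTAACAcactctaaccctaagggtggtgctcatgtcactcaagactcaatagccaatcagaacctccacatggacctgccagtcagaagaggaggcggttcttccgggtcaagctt
Zfp970: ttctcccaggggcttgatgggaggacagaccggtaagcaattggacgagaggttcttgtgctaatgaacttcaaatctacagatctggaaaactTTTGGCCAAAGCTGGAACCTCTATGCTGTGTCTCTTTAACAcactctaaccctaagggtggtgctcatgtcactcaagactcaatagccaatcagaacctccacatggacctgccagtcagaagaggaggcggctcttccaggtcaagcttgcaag
Zfp931: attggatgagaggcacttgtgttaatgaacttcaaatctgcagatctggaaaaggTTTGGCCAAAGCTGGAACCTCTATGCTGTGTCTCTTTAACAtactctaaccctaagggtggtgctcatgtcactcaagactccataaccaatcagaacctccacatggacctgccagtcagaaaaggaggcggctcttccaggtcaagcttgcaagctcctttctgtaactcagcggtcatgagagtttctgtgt

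The next 5 are the clustered windows with the largest fall (Zfp976) and rise (Zfp872), the single window with the largest rise among those that passed (Zfp827), and 2 near copies from a chromosome 4 block (Zfp600 and Zfp979). Capitals mark CG dinucleotides, the sites of DNA methylation, of which the stretches hold 8, 15, 23, 2 and 2. They lie at chr7:42642605-42642854 (minus strand), chr9:22187916-22188165 (plus), chr8:79028187-79028436 (plus), chr4:146156577-146156826 (plus) and chr4:147642509-147642758 (minus).
Zfp976: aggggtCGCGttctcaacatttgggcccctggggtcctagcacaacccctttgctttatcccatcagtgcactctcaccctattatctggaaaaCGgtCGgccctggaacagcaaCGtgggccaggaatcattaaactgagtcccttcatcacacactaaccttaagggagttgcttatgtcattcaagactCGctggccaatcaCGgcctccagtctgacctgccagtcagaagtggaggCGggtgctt
Zfp872: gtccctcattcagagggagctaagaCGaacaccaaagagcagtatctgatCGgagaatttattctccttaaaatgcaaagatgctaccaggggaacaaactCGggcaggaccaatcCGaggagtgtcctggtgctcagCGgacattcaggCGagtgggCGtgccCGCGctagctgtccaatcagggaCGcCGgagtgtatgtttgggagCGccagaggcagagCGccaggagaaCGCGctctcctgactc
Zfp827: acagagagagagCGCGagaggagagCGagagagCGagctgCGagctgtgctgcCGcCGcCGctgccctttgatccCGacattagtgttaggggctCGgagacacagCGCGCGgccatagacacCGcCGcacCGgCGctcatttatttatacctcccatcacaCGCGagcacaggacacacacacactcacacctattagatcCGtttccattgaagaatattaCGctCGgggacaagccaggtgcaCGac
Zfp600: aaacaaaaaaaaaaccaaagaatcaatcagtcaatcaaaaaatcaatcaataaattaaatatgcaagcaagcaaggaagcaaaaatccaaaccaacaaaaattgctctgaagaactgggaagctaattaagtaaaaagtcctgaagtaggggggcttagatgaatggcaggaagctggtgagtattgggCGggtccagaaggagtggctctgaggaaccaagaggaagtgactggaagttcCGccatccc
Zfp979: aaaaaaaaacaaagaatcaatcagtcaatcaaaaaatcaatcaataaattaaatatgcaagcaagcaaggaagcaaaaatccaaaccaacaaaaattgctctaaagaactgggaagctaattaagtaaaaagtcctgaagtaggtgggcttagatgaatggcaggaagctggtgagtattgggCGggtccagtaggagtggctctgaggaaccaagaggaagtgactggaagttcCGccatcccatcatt

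Zfp promoters were mostly open in these cells, and most did not pass the test in the knockout. Their median level was 44.7 CPM, against 7.23 CPM over all windows. Of the 367 windows, 347 had enough counts to be tested; the other 20 all overlapped another gene's window. In the knockout 47 were lower (13.5%) and 32 higher (9.22%), while 268 did not pass. Over all 24817 windows tested, 20.2% were lower and 6.36% higher. The median log2 fold change was 0.06 for Zfp windows and 0.04 for all windows, and 11 of the falls and 4 of the rises were at least 2-fold. All 3 knockout values were under all 3 wildtype values in 65 Zfp windows (24.6% of all windows did so) and over them in 59 (13.5% of all windows).

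Both classes held falls and rises. Of 214 clustered windows tested, 30 fell (14.02%) and 22 rose (10.3%), with a median log2 fold change of 0.06. Of 133 single windows, 17 fell (12.8%) and 10 rose (7.52%), with a median of 0.07. No test of the difference between the classes was made. The count of rises depended on the setting: it was 12 without wildtype replicate 1, 20 without knockout replicate 2, and 116 after loess normalization, which bends each library's scale with the level of a window; falls then numbered 59. Scaling by library totals alone gave 63 rises and 62 falls, and DESeq2 gave 37 rises and 36 falls.

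**Figure D1:**
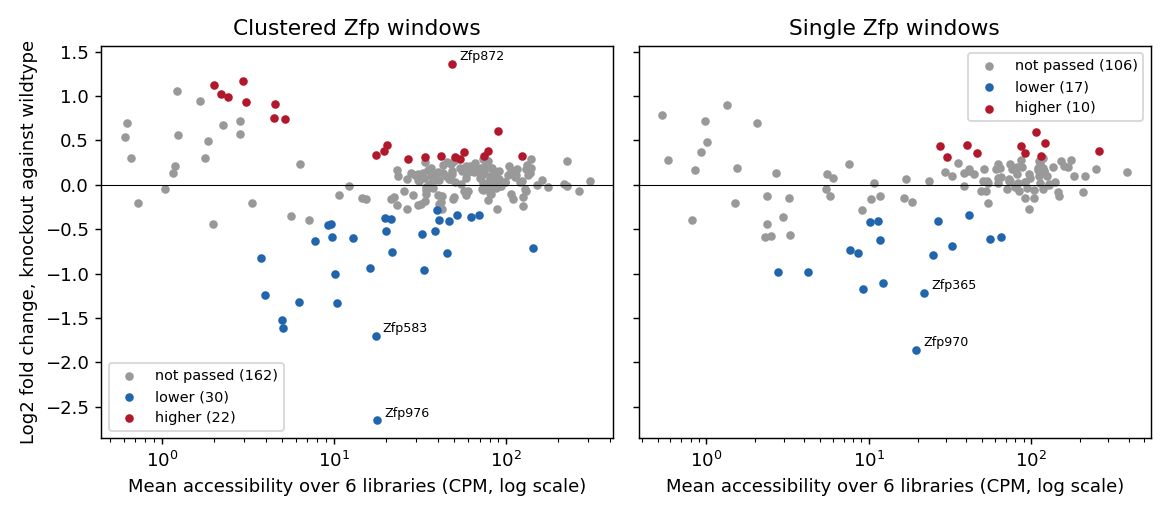
Log2 fold change of each tested Zfp window (knockout against wildtype, y axis) against its mean level in CPM (x axis, log scale), for clustered (left) and single (right) windows; each point is 1 window, blue lower, red higher, grey not passed. The 2-fold falls lie at intermediate levels, and the highest windows stay close to 0.

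The share of falls followed the level of the windows. All tested windows were split into quartiles of mean level, with bounds at 2.04, 10.1 and 60.8 CPM. In the top quartile 4 of 145 Zfp windows fell and 10 rose, where 3.87% and 9.36% of all windows did so. In the next, 29 of 135 fell and 14 rose (43.8% and 9.22% of all windows), in the second from the bottom 14 of 43 fell and 7 rose (32.0% and 4.77%), and in the lowest 0 of 24 fell and 1 rose (1.13% and 2.08%); by the unadjusted edgeR p, 0 of those 24 fell and 3 rose at under 0.05. The Zfp windows were thus crowded into the quartiles of high level, and in the one between 10.1 and 60.8 CPM their share of falls was 21.5% against 43.8%. Knockout library 1 stood apart: the median log2 ratio of its Zfp windows to the wildtype mean was 0.17, against 0.00 and -0.02 in the other knockout libraries. Over all windows this ratio in knockout library 1 varied with level. From the lowest quartile to the top it was -0.29, -0.52, -0.10 and 0.29, and Zfp windows of the top quartile stood at 0.28.

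Most of the widest open Zfp promoters did not pass the test. Zfp36 held 377, 375 and 364 CPM in wildtype against 472, 388 and 375 CPM in knockout. These ranges overlap, and the log2 fold change of 0.15 did not pass (adjusted p = 0.450). Zfp869 was the most open clustered window, at 302 ± 20.4 CPM in wildtype against 311 ± 39.0 CPM in knockout (log2 change 0.04, adjusted p = 0.853). Zfp219, Zfp788, Zfp46, Zfp574, Zfp446, Zfp868 and Zfp809, all above 200 CPM, did not pass either. Zfp703, a co-repressor of the NET family, was the exception among the 10 most open windows named, at 228, 236 and 222 CPM in wildtype against 343, 279 and 271 CPM in knockout (log2 change 0.38, SE 0.129, adjusted p = 0.0145); without wildtype replicate 1 it did not pass.

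Calls were counted by cluster. Of 57 clusters, 29 held 2 members and the largest, on chromosome 13, held 19. No member passed in 24 clusters, among them that of Zfp646 and Zfp668, where none was tested. Only falls were seen in 18 clusters, only rises in 11, and both in 4. All tested members fell in 6 clusters and rose in 1, each of them a cluster of 2. Some of the 6 lie in the chromosome 2 block described below, and the 1 lies in a chromosome 4 block. Among 158 pairs of tested neighbours inside a cluster, 8 fell together, 4 rose together, 2 went opposite ways, 44 had 1 member past the test and 100 had none. The 4 pairs that rose together all lie in the chromosome 4 block. These counts of clusters and pairs were not set against neighbours among other windows. The median difference of log2 fold change between neighbours was 0.22. The 4 clusters with 10 or more members held 53 tested windows, of which 1 fell (1.89%) and 6 rose (11.3%). In the smaller ones 29 of 161 fell (18.01%, near the 20.2% of all windows) and 16 rose (9.94%, against 6.36%).

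**Figure D2:**
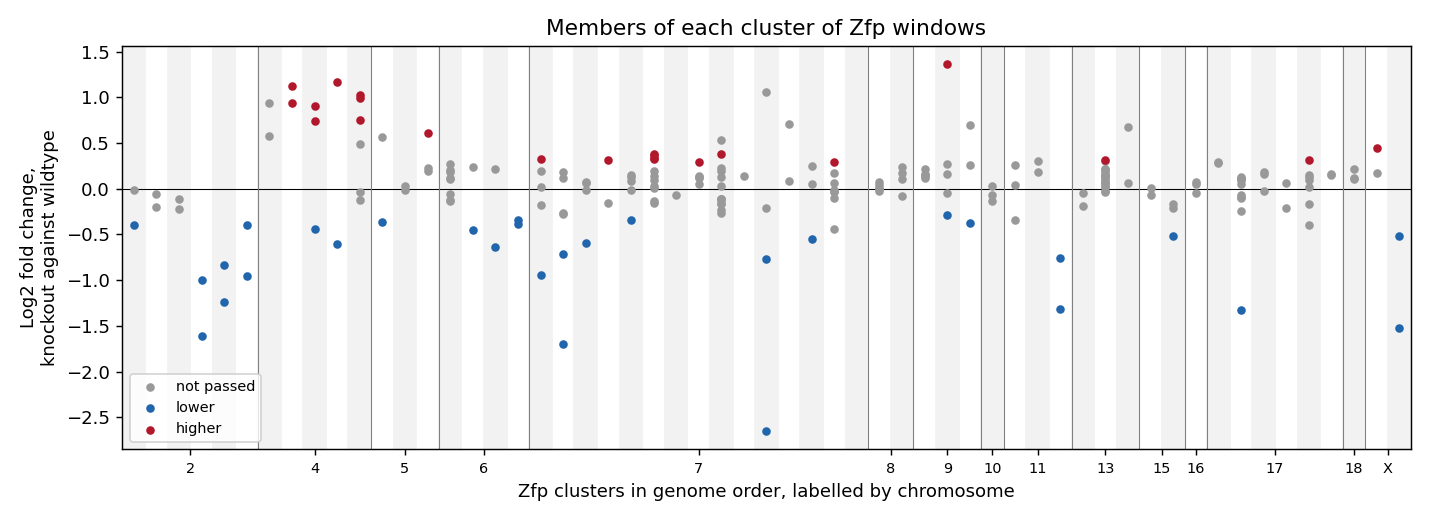
Log2 fold change (knockout against wildtype, y axis) of every tested member of the 57 clusters, placed in genome order with shaded bands for alternate clusters (x axis, chromosome labels); blue lower, red higher, grey not passed. The falls on chromosome 2 and the rises on chromosome 4 sit in adjacent clusters, and the lowest point is Zfp976 on chromosome 7.

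The largest run of falls lay on chromosome 2, between positions 174640534 and 178081425, where Zfp windows were joined into a block when neighbours started within 1 Mb; this chaining was chosen after the values were seen. Of its 9 Zfp windows, 8 fell: Zfp968, Zfp973, Zfp966, Zfp967, Zfp965, Zfp970, Zfp971 and Zfp931. Their median log2 fold change with Zfp831 included was -0.998. Zfp831, at the edge of the block, held 1.60 ± 0.659 CPM in wildtype against 1.40 ± 0.622 CPM in knockout and did not pass (adjusted p = 0.780). Summed over the 9 windows, the wildtype libraries held 178, 163 and 180 CPM and the knockout libraries 95.9, 87.6 and 94.7 CPM. In each of the 8 windows that fell, the highest knockout value was under the lowest wildtype value. Over all windows tested, 20.2% were lower and 24.6% stood apart in this way. The 8 were already called lower and the block was drawn after its falls were seen, so these counts only describe it.

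Zfp970, a single window by the distance rule, held 29.3, 28.7 and 33.97 CPM in wildtype against 7.56, 6.93 and 10.9 CPM in knockout. The groups are far apart (log2 change -1.85, SE 0.129, adjusted p = 1.37e-44). Zfp973 held 9.89, 6.20 and 6.62 CPM in wildtype against 2.12, 2.69 and 2.63 CPM in knockout (-1.62, SE 0.217, adjusted p = 1.57e-12). The smallest of the 8 falls was that of Zfp971, from 53.0 ± 1.18 to 40.1 ± 5.04 CPM (-0.40, SE 0.112, adjusted p = 0.00198), next to Zfp931, which fell from 44.2 ± 2.81 to 22.7 ± 2.92 CPM (-0.96, SE 0.114, adjusted p = 1.37e-15). Zfp965 fell by 1.24, Zfp966 by 1.18, Zfp968 by 0.998 and Zfp967 by 0.83 on the log2 scale; Zfp967 did not pass without knockout replicate 2 or wildtype replicate 3.

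**Figure D3:**
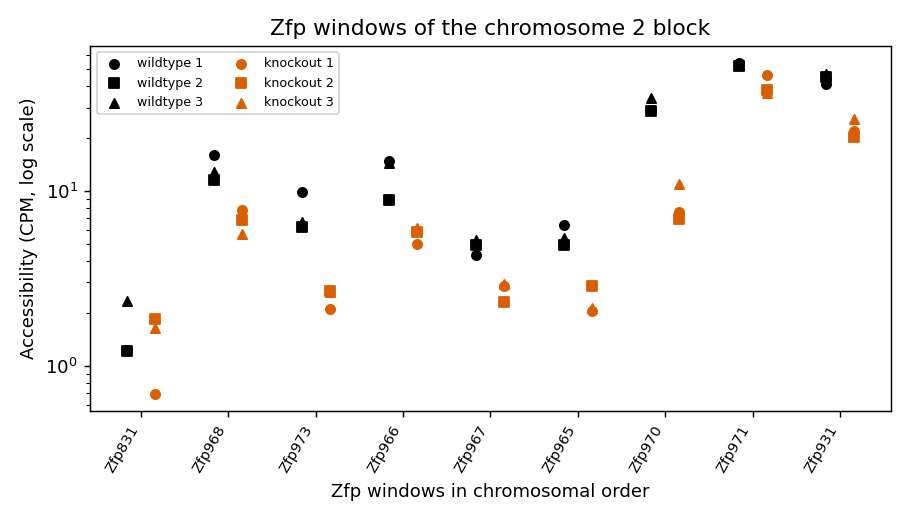
Accessibility in CPM (y axis, log scale) of the 9 Zfp windows of the chromosome 2 block in chromosomal order (x axis); black symbols are wildtype and orange symbols knockout libraries, with circle, square and triangle for replicates 1 to 3. In all windows but Zfp831, every orange symbol lies below every black one.

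Most other windows of the block also fell. Of 31 other windows there, mostly gene models named Gm followed by a number, 29 were tested, 21 fell and none rose, with a median log2 fold change of -1.07; 2 of those that fell, Gm14403 and Gm14322, changed by -2.60 and -2.50. Of the 10 tested with a mean under 5 CPM, 2 fell, and their median was 0.13. The promoters of the block are near copies. Over 15 pairs of the 6 Zfp promoters available, identity ran from 58.6% to 100% with a median of 84.0%, and Zfp970 matched Zfp966 and Zfp967 at 96.1%. Reads from such copies may be assigned to any of them or left out, and the sources used here do not say how reads matching several places were handled, so the values of single members are less certain than their sum.

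The shared letters were described across the genome, after the values were seen. The 6 Zfp promoters had 115 strings of 12 bases in common. Of 18000 promoters, 20 held 70 or more of these strings, all 20 inside the block and 6 of them Zfp promoters, and all 20 were lower in the knockout (median log2 fold change -1.13). The 6 Zfp promoters hold every string by construction and come from a block picked for its falls. The others lie in the same block of near copies, so their falls are not independent of that choice. Those others are all gene models named Gm, with log2 fold changes from -0.38 to -2.60. Another 4 held 10 to 27 strings, and none of the 3 tested passed, at mean levels of 1.85 to 3.35 CPM; 1 of them, Gm14393 with 10 strings and a change of 0.44, lies inside the block. Zfp345 on chromosome 2, with 25 strings, held 3.35 CPM on average and changed by -0.20. The 130 promoters with 1 to 8 strings had 31 falls and 1 rise among 123 tested (25.2% lower), against 19.9% lower among the promoters with none. Zfp976 and Zfp975 on chromosome 7, both lower, held 5 strings each, and Zfp936 on the same chromosome, whose promoter is 82.4% identical to that of Zfp976, held 3, changed by 0.71 and did not pass (adjusted p = 0.0614). The 20 promoters are copies in 1 stretch of chromosome, so that sequence and position cannot be told apart here.

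**Figure D4:**
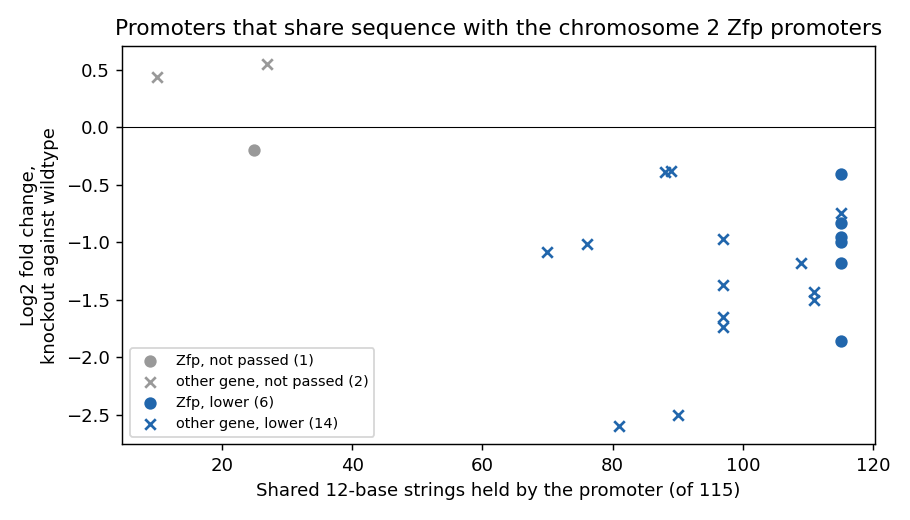
Log2 fold change (knockout against wildtype, y axis) of the 23 tested promoters that hold at least 10 of the 115 shared strings, against the number of strings held (x axis); dots are Zfp genes and crosses other genes, blue lower and grey not passed. The 20 promoters with 70 or more strings, all from the block picked for its falls, are all lower. The 6 Zfp promoters among them hold all 115 strings by construction.

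A second block, on chromosome 4 between positions 145614146 and 147851375, held 8 of the 32 rises. Its 15 Zfp windows include Zfp987, Zfp600, Zfp992, Zfp981, Zfp986, Zfp982, Zfp985 and Zfp979, which rose by log2 0.74 to 1.17, and Zfp993 and Zfp991, which fell. Zfp986 held 1.54, 1.85 and 2.07 CPM in wildtype against 2.06, 4.001 and 6.24 CPM in knockout (log2 change 1.17, SE 0.295, adjusted p = 0.000473). Zfp600 held 1.90, 2.05 and 2.36 CPM in wildtype against 1.38, 4.54 and 6.18 CPM in knockout (0.93, SE 0.286, adjusted p = 0.00571). Knockout libraries 2 and 3 were high and knockout library 1 was within or below the wildtype range, and in none of the 8 did the groups stand apart.

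The block's median log2 ratio to the wildtype mean was -0.45 in knockout library 1 and 0.97 and 1.19 in knockout libraries 2 and 3. The same order was seen over all 8013 windows with a mean of 1 to 5 CPM, at -0.38, 0.21 and 0.28, of which 3.03% rose. Among 23 other windows of the block 10 rose. The count of 8 Zfp rises became 0 without knockout replicate 3, 2 without knockout replicate 2, 4 without wildtype replicate 1 or 2, 2 with DESeq2, 1 with scaling by library totals, 1 when a mean count of 50 was required, and 11 without knockout replicate 1. Zfp991, at the higher level of 15.5 ± 1.32 CPM in wildtype, fell to 10.2 ± 3.11 CPM (-0.60, SE 0.137, adjusted p = 8.85e-05).

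**Figure D5:**
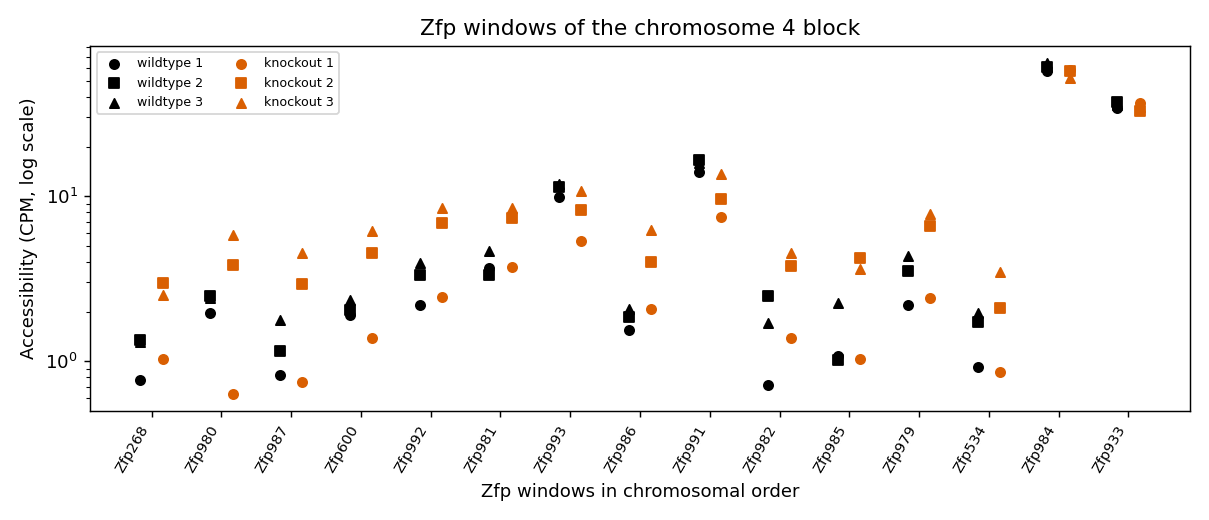
Accessibility in CPM (y axis, log scale) of the 15 Zfp windows of the chromosome 4 block in chromosomal order (x axis); black symbols are wildtype and orange symbols knockout libraries, with circle, square and triangle for replicates 1 to 3. Orange squares and triangles lie above the black symbols in most low windows while the orange circles do not.

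Outside both blocks, 37 of 323 tested Zfp windows fell (11.5%, against 20.2% of all windows) and 24 rose (7.43%, near the 6.36% of all windows). The blocks were picked for their falls and rises, so leaving them out lowers both shares. The largest fall of all was that of Zfp976, on chromosome 7 between 42640604 and 42645604. It held 33.0, 26.4 and 32.1 CPM in wildtype against 2.64, 4.60 and 7.40 CPM in knockout (log2 change -2.65, SE 0.141, adjusted p = 8.67e-67). Every knockout library lay far below the wildtype libraries. Its cluster neighbours differed: Zfp975 fell from 57.3 ± 6.39 to 33.7 ± 1.43 CPM (-0.77, SE 0.113, adjusted p = 1.39e-10), Zfp141 went from 34.5 ± 1.45 to 29.8 ± 2.11 CPM without passing (adjusted p = 0.160), and Zfp977, at 0.797 ± 0.499 and 1.65 ± 0.332 CPM, did not pass (adjusted p = 0.0879).

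Among the other large falls, some had a neighbour that also fell and some stood alone. Zfp583 on chromosome 7 held 31.7, 20.8 and 27.2 CPM in wildtype against 7.51, 6.87 and 10.3 CPM in knockout (-1.70, SE 0.131, adjusted p = 2.88e-36), and Zfp78 beside it fell from 176.7 ± 12.002 to 108 ± 7.67 CPM (-0.71, SE 0.125, adjusted p = 1.36e-07), while the other 4 members of that cluster did not pass. Zfp286 and Zfp287 on chromosome 11 fell by 1.32 and 0.75 on the log2 scale, and Zfp92 and Zfp275 on chromosome X fell by 1.52 and 0.52. Zfp820 moved alone: it fell from 14.9 ± 0.901 to 5.90 ± 0.435 CPM (-1.33, SE 0.152, adjusted p = 5.03e-17), and the other 10 tested members of its cluster on chromosome 17 did not pass. The largest fall among single windows after the chromosome 2 block was that of Zfp365, from 30.7 ± 2.70 to 13.3 ± 1.13 CPM (-1.21, SE 0.122, adjusted p = 9.11e-22). In all of these windows the 2 groups did not overlap.

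The largest rise was that of Zfp872 on chromosome 9, which held 26.5, 29.7 and 25.6 CPM in wildtype against 80.7, 61.0 and 68.2 CPM in knockout (log2 change 1.36, SE 0.115, adjusted p = 1.49e-30). All knockout libraries lay above all wildtype libraries. Of its neighbours, Zfp809, known for silencing retroviruses in embryonic cells, went from 206 ± 11.1 to 248 ± 34.2 CPM (adjusted p = 0.109), Zfp810 from 85.6 ± 3.74 to 95.5 ± 8.41 CPM (adjusted p = 0.353), and Zfp599 fell by 0.28 on the log2 scale (adjusted p = 0.0432). Zfp316 on chromosome 5 rose from 71.2 ± 6.52 to 108 ± 12.3 CPM (0.61, SE 0.119, adjusted p = 3.54e-06) and the single window Zfp827 from 85.6 ± 18.4 to 129 ± 16.8 CPM (0.60, SE 0.121, adjusted p = 7.4e-06). A cluster of 12 windows on chromosome 7 had 4 small rises among 11 tested, in Zfp108, Zfp61, Zfp114 and Zfp112, by log2 0.33 to 0.38. Each of these calls was lost when 1 library was left out: wildtype replicate 3 for Zfp108, Zfp112 and Zfp114, wildtype replicate 1 for Zfp61 and Zfp112, knockout replicate 2 for Zfp108 and Zfp112, and knockout replicate 1 or wildtype replicate 2 for Zfp114.

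Of 29 members with a known role, 9 fell (31.0%, against 20.2% of all windows) and 1 rose (3.45%, against 6.36%), with a median log2 fold change of -0.04 (0.06 over all Zfp windows). Their median level was 49.5 CPM, in the quartile where 43.8% of all windows fell and 9.22% rose. Zfp57 and Zfp445 guard imprinted genes. Zfp57 held 13.6, 11.95 and 13.3 CPM in wildtype against 7.28, 10.99 and 11.2 CPM in knockout (-0.40, SE 0.142, adjusted p = 0.0204), with knockout library 1 the lowest. That call was lost under 8 of 13 alternatives, among them leaving out knockout replicate 1 (-0.23), wildtype replicate 1 or wildtype replicate 3, and loess normalization turned the sign (0.066). Zfp445 went from 45.0 ± 0.946 to 54.0 ± 5.79 CPM and did not pass (adjusted p = 0.0638). Zfp568, a repressor of a placental Igf2 promoter, did not pass at 83.3 ± 3.03 and 74.0 ± 3.46 CPM (adjusted p = 0.304). Zfp932, which silences endogenous retroviruses, fell by 0.36 on the log2 scale, Zfp819 by 0.55 and Zfp808 by 0.34. The calls of Zfp932 (without knockout replicate 3 or wildtype replicate 1) and Zfp808 (without knockout replicate 2 or wildtype replicate 1, and with DESeq2) did not hold throughout.

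Zfp521 and Zfp423 are paralogs whose proteins bind EBF factors and act in the B cell, mesenchymal and fat lineages. Zfp521 held 68.6, 72.1 and 62.6 CPM in wildtype against 51.6, 39.7 and 41.3 CPM in knockout (-0.61, SE 0.113, adjusted p = 5.97e-07). Zfp423 fell from 78.9 ± 3.73 to 52.3 ± 5.76 CPM (-0.59, SE 0.115, adjusted p = 2.55e-06). The groups do not overlap in either window. Among the B cell, mesenchymal and endothelial markers, Ebf1 went from 63.9 ± 1.07 to 21.7 ± 1.56 CPM and Pdgfrb from 36.4 ± 2.97 to 16.2 ± 0.345 CPM. Dcn rose from 12.04 ± 2.29 to 22.3 ± 2.10 CPM. Col1a1 (-0.12), Ms4a1 (0.03), Cd79a (-0.19) and the endothelial genes Cdh5 (-0.30) and Tie1 (0.18, all log2 changes) did not pass. All other markers of these lists were lower. The part of such cells in the Zfp results was not tested. Zfp541, a chromatin factor of meiosis, fell from 5.58 ± 0.711 to 2.81 ± 0.266 CPM, and Zfp536, a neural regulator, from 9.52 ± 0.489 to 5.73 ± 0.630 CPM. The epidermal regulator Zfp750 stood at 83.0 ± 6.04 and 84.1 ± 10.9 CPM and did not pass (adjusted p = 0.927).

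Of 27 windows of the KRAB repression machinery, 1 fell (3.70%, against 20.2% of all windows) and 2 rose (7.41%, near the 6.36% of all windows), and the median log2 fold change was 0.14. Their median level was 87.2 CPM, in the top quartile, where similar shares of all windows fell (3.87%) and rose (9.36%). Trim28 went from 180 ± 6.49 to 201 ± 31.0 CPM (adjusted p = 0.384) and Setdb1 from 42.7 ± 3.99 to 45.0 ± 4.43 CPM (adjusted p = 0.664). Resf1, a SETDB1 partner, and Tasor, of the HUSH silencing complex, rose by log2 0.36 and 0.34, and Ehmt1, a methyltransferase of histone H3 lysine 9, fell by 0.50 on the log2 scale. In the related zinc finger families, 3 of 36 tested BTB genes fell (8.33%) and 8 rose (22.2%), against 20.2% and 6.36% of all windows. The largest change was Zbtb38, from 14.8 ± 2.54 to 37.4 ± 1.64 CPM. Of 28 SCAN genes, 1 fell (3.57%) and 2 rose (7.14%, near the share over all windows). Of these rises, Zscan4d went from 0.560 ± 0.226 to 1.87 ± 1.18 CPM, and its groups overlapped. The median level was 77.0 CPM for the BTB genes, also in the top quartile, where 3.87% of all windows fell and 9.36% rose. For the SCAN genes it was 14.4 CPM, in the quartile where 43.8% fell and 9.22% rose.

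The sequences of Zfp promoters are compared here with all promoters in composition, as a description. The 300 bases around the start, with 250 upstream and 50 downstream, had a median GC content of 54.3% and 14 CG dinucleotides in 293 Zfp promoters, against 56.3% and 13 in 18000 promoters. The letters CCAAT, searched on both strands, occurred in 49.1% of Zfp promoters and 39.0% of all, CCGGAAG (a core bound by ETS factors) in 23.2% and 11.97%, and TATAAA in 6.48% and 13.2%. The median number of CG dinucleotides was 8 in the 31 Zfp promoters that were lower, 9 in the 23 that were higher and 14 in the 222 that did not pass; over all genes it was 11, 13 and 14. CCGGAAG occurred in 12.9% of the lower (4 of 31), 17.4% of the higher (4 of 23) and 25.2% of the other tested Zfp promoters. Over all genes the same order was seen, at 5.15%, 9.73% and 13.2%. The lower and higher sets hold the near copies of the blocks on chromosomes 2 and 4, so that their members are not independent.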

How the data were processed

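Accessibility was measured by ATAC-seq in 6 libraries, 3 wildtype and 3 Kat7 knockout, with groups and replicate numbers from the labels. Per the submitters' processing notes, the authors made whole-number counts per gene window with featureCounts on mm10 and deposited them without normalization; aligner, duplicate removal, transposase shift and handling of multiply matching reads were not stated in the sources used here. Most windows began 3000 bases ahead of a gene start and ended 2000 bases past it. Symbols were joined by gene identifier from the tables of single libraries.

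Counts were fitted in R 4.3.3 with edgeR 4.0.16 (filterByExpr, TMM, robust quasi-likelihood F test, no covariate) over all windows, and Benjamini-Hochberg adjusted p under 0.05 over 24817 windows is the threshold for every adjusted p given. Printed standard errors are the absolute log2 fold change divided by the square root of F. The biological coefficient of variation was 10.9%; 3 counts were worth 0.154 to 0.192 CPM. The script was tested on simulated data. Alternatives were DESeq2 1.42.0, limma-voom with sample weights (limma 3.58.1), library totals, loess normalization, other filters, windows that share no base, a replicate block, other distance and symbol rules, and each library left out. p-values set each change against the spread between these libraries, with that spread estimated partly from all windows together.

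The members, the lists and the tests were chosen with earlier results of these data known. Named windows are the 10 largest falls and rises, members of the clusters with most calls, the 5 most open of each class and members of known role; neighbours are given for context. The blocks, the shared strings and the windows named beside them were chosen after their values were seen. A single shared string that Zfp976 and Zfp975 also carry was looked at first and dropped, since it had been picked with the calls in view; all strings common to the block's Zfp promoters, taken from those promoters alone, were used in its place. Promoter sequences are RefSeq's on GRCm38.p6. Of 30 names of known role, 29 matched a window.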

Additional observations from a re-analysis of the deposited data

How the results depend on the processing

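Counts of falls varied less than counts of rises, though which windows fell also changed. With DESeq2, Zfp falls numbered 36 (23 clustered, 13 single) and rises 37 (22 and 15), so that falls no longer outnumbered rises. With limma-voom, Zfp falls numbered 81 (54 clustered, 27 single) and rises 60 (39 and 21). Rises numbered 63 (36 clustered, 27 single) with library totals, 116 (81 and 35) after loess normalization, 95 (55 and 40) when a mean count of 50 was required. Falls were 62 with library totals and 59 after loess normalization, of which 32 were among the 47. All 32 rises of the main fit were kept after loess normalization. Leaving out 1 library gave 39 to 68 falls and 12 to 39 rises over all Zfp windows, 25 to 45 and 9 to 26 among clustered, and 14 to 23 and 3 to 16 among single ones; the lowest counts of rises came without wildtype replicate 1. On chromosome 2 the 8 falls became 7 to 8 without 1 library and stayed 8 under the other alternatives run. On chromosome 4 the 8 rises became 0 to 11 without 1 library, 2 with DESeq2, 1 with library totals and 1 with the mean count of 50. After loess normalization the sign turned for Zfp36 (-0.20), Zfp46 (-0.14), Zfp57 (0.066), Zfp868 (-0.23) and Zfp869 (-0.26). The causes were not tested.

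Deviations of samples with the same replicate number correlated at 0.374, 0.0284 and 0.389, and every wildtype sample correlated best with the knockout sample of its own number, a hint from the data and not from the design. With a replicate block, rises numbered 54 (35 clustered, 19 single) and falls 52. In the lowest quartile of windows, below 2.04 CPM, few changes of any size passed (1.13% lower and 2.08% higher). The part of depth in this was not tested.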
